A study of Caenorhabditis elegans with 22 samples.

Results

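The 71 loci described here are the Caenorhabditis elegans genes whose small RNA was far higher without the ADAR enzymes. They were chosen on the small RNA table of adr-1;adr-2 worms: on log2 of normalised reads plus 1, the lower mutant library had to lie at least 2 (4-fold) above the higher wild-type library, and the mutant mean had to be at least 50 normalised reads. 118 of the 46780 gene IDs passed both limits, against 23975 genes that reached a mean of 10 over these libraries (0.492%). 47 of them were left out by name because they belong to large families such as the histone genes (12 loci) and the fbxc F-box genes (5 loci) or were listed singly. Differences between adr-1;adr-2 and wild-type small RNA at these loci are therefore what chose them and are given as a description, with no test.

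ADARs are enzymes that bind double-stranded RNA and turn adenosine into inosine. Double-stranded RNA that is not edited can be cut by Dicer, and in worms the cut pieces start the making of secondary small interfering RNAs by RNA-dependent RNA polymerases, which Argonaute proteins use to silence matching transcripts. DRH-1 is a RIG-I-like helicase that works with Dicer on foreign double-stranded RNA, NRDE-3 is an Argonaute that carries small RNAs into the nucleus of somatic cells, and ERI-6/7 is a helicase of the endogenous siRNA pathway.

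The study sequenced whole adult worms with embryos, collected 70 hours after L1 arrest from cultures at 20 °C, in 22 libraries. Small RNA of 18 to 28 nt and ribosome-depleted total RNA were each read in 2 libraries per genotype (8 libraries each), and polyadenylated mRNA in 1 library per condition (6 libraries). The genotypes were wild type, adr-1;adr-2 (called the ADAR mutant below), eri-6(mg379) from strain GR1814, and strain GR1744 (called the triple mutant), which combines the eri-6 allele mg379 with adr-1(gv6) and adr-2(gv42). The mRNA libraries came from N2 and GR1744 worms fed HT115 bacteria with the empty vector L4440 or with double-stranded RNA for drh-1 or nrde-3.

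The 2 small RNA libraries of a genotype were not always the same strain. For wild type, replicate 1 was strain GR1831 with the mgIs30 transgene, whereas N2 gave replicate 2. ADAR mutant replicate 1 was BB4 with adr-1(gv6) and adr-2(gv42), and replicate 2 was BB21 with adr-1(tm668) and adr-2(ok735). The total RNA of the ADAR mutant was labelled BB4 but with the tm668 and ok735 alleles, so the strain and the alleles of that label do not go together. Strain and replicate number cannot be told apart in the small RNA data, and nothing in the labels says whether libraries of a genotype came from separate cultures.

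The full small RNA tables held 10904105 to 32303754 reads per library. The small RNA at adr-1 was 67.9 and 85.3 normalised reads in the ADAR mutant against 328 and 621 in wild type, and at adr-2 it was 124 and 138 against 257 and 515. In total RNA eri-6 was at 17.8 FPKM in wild type, 10.1 in the ADAR mutant, 5.35 in eri-6 and 5.73 in the triple mutant. In mRNA, drh-1 was not lower in the libraries labelled drh-1 RNAi: it was at 32.3 FPKM against 14.3 on control food in wild type, and at 65.4 against 19.02 in the triple mutant. nrde-3 was at 5.26 FPKM on nrde-3 RNAi against 5.76 on control food in wild type, and at 8.08 against 15.4 in the triple mutant.

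**Figure D1:**
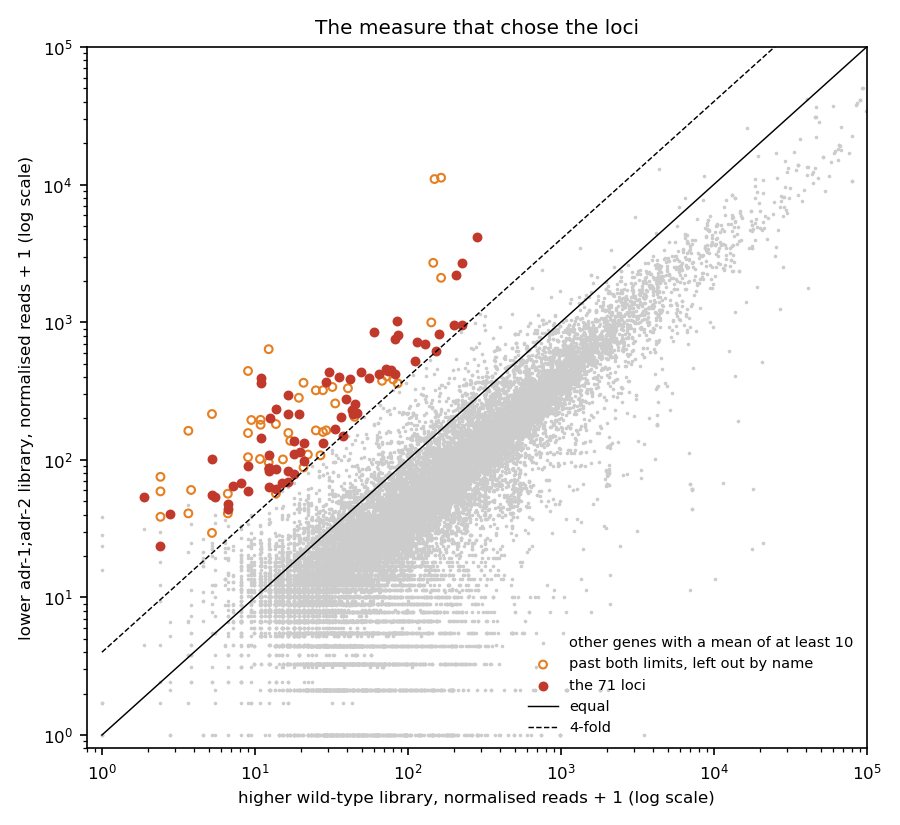
Lower ADAR mutant library (y) against the higher wild-type library (x), in normalised small RNA reads plus 1 on log axes, for every gene with a mean of at least 10. The 71 loci and the 47 loci left out by name lie above the dashed 4-fold line, which is what the choice required.

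Small RNA at the 71 loci rested on few reads in wild type. Their median level was 240 and 278 normalised reads in the 2 ADAR mutant libraries and 12.5 and 19.8 in the 2 wild-type libraries. Summed, they held 0.158% and 0.262% of the reads of the ADAR mutant libraries and 0.00779% and 0.0191% of those of wild type. The gap between the lower mutant and the higher wild-type library ran from 2.0003 to 5.17 on the log2 scale with a median of 2.81, and 6 loci had a gap of at least 4. No locus had the same reads as another gene in every library.

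The members just inside the gap limit were npa-1, alh-7 and acox-1.2 with gaps of 2.0003, 2.03 and 2.06, and just outside it lay T24E12.10, Y69A2AR.12 and Y69A2AR.25 with 1.99, 1.98 and 1.96. Just inside the limit on the mean were F14H12.14, gpa-17 and C41G7.8 with mutant means of 53.03, 55.6 and 61.9 normalised reads. Just outside it were F14H12.11, cpt-4 and slcf-1 with 49.1, 43.9 and 42.8.

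**Figure D2:**
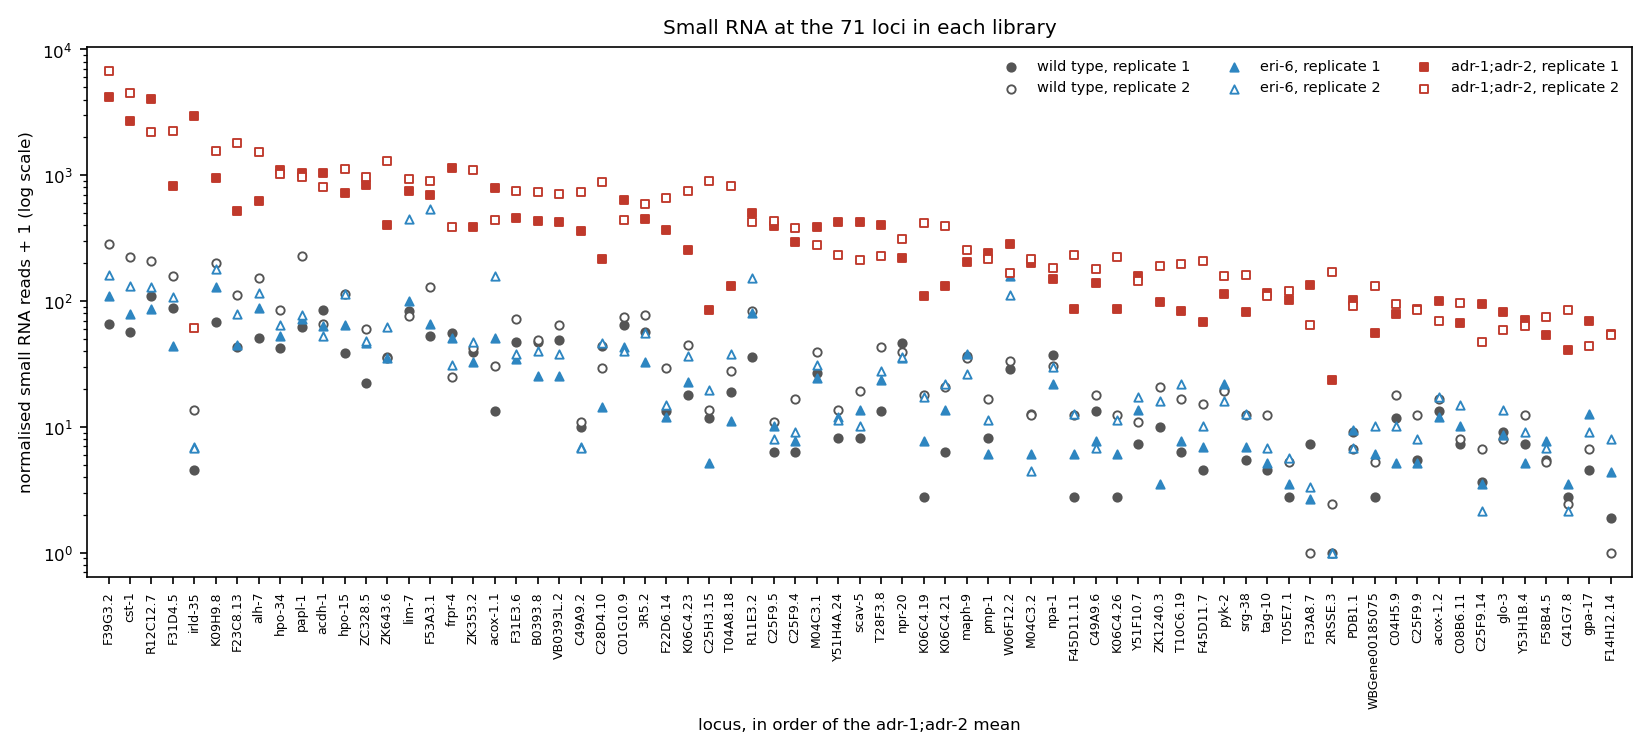
Normalised small RNA reads plus 1 (log axis) at each of the 71 loci in 2 wild-type, 2 eri-6 and 2 ADAR mutant libraries, ordered by the ADAR mutant mean. The ADAR mutant points lie above the wild-type points at every locus by choice. Wild-type points are on the scaling of the ADAR mutant table and eri-6 points on that of the eri-6 table, so their heights are not exactly comparable. With wild type on the eri-6 table's scaling, both eri-6 libraries lay above both wild-type libraries, low here by choice, at 6 of the 42 loci tested. acox-1.1, W06F12.2 and lim-7 were among them.

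Several members encode enzymes or transporters of lipid and amino acid breakdown, at levels from high to low. acdh-1, an acyl-CoA dehydrogenase whose level follows diet and propionate, had 1046 and 804 normalised reads in the ADAR mutant libraries and 84.7 and 65.1 in wild type. alh-7, an aldehyde dehydrogenase, had 622 and 1544 reads against 49.9 and 151. acox-1.1, a peroxisomal acyl-CoA oxidase used in the making of ascaroside pheromones, had 785 and 437 reads against 12.5 and 29.7. Its neighbour acox-1.2, of the same enzyme family, had far fewer reads, with 99.0 and 68.2 against 12.5 and 15.6. pmp-1, a peroxisomal membrane ABC transporter, had 240 and 215 reads against 7.13 and 15.6. pmp-2, the copy beside it that was left out by name, had 942 and 636 against 5.35 and 11.3. In each of these genes both mutant libraries lay above both wild-type libraries, which the choice required. The mutant libraries differed from each other less than 3-fold.

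Genes of signalling and of gene control were spread over the whole range of levels. cst-1, a Ste20-like kinase of the Hippo family, had 2713 and 4533 normalised reads in the ADAR mutant and 56.1 and 225 in wild type. Its near copy cst-2, left out by name, had 2700 and 4413 against 24.1 and 146, and reads shared between such copies cannot be assigned with certainty. lim-7, a LIM homeodomain transcription factor of the gonadal sheath, had 748 and 928 reads against 82.0 and 75.0. gpa-17, a G protein alpha subunit, was among the lowest with 67.9 and 43.2 reads against 3.56 and 5.66.

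irld-35, which encodes a protein with insulin-receptor-like L domains, stood apart for the distance between its mutant libraries. It had 2932 reads in ADAR mutant replicate 1 and 60.3 in replicate 2, against 3.56 and 12.7 in wild type. It is 1 of 4 members whose mutant libraries differed by over 5-fold. Another locus, which the name sources call irld-53 or irld-35, was left out by name. 48 of the 71 loci differed by less than 2-fold between the mutant libraries, and 45 were higher in replicate 2.

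Several of the highest members have no role known with certainty. F39G3.2 had the most reads of all, with 4192 and 6733 in the ADAR mutant and 64.2 and 284 in wild type. R12C12.7 had 4036 and 2217 against 110 and 206. Per kilobase of gene R12C12.7 was the higher of these, at 3301 normalised reads per kb in the mutant mean against 1634 for F39G3.2. F31D4.5 had 822 and 2228 reads against 86.4 and 158, and K09H9.8 had 957 and 1545 against 67.7 and 198. F23C8.13 had 523 and 1806 reads against 41.9 and 110. In these 3 genes the mutant replicate from BB21 was higher than that from BB4.

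hpo-34 and hpo-15, both named in a screen for hypersensitivity to a pore-forming toxin, had similar levels. hpo-34 had 1099 and 1013 reads in the ADAR mutant and 41.0 and 83.4 in wild type, and hpo-15 had 721 and 1116 against 37.4 and 113. papl-1 had 1051 and 961 reads against 61.5 and 226. The largest gaps belonged to loci with less small RNA: C25F9.5 (5.17), C49A9.2 (5.05), F14H12.14 (4.82), T05E7.1 (4.27), C25F9.4 (4.17) and Y51H4A.24 (4.09). At C49A9.2 the libraries held 359 and 739 normalised reads in the mutant and 8.91 and 9.90 in wild type.

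70 of the 71 loci had a position in RefSeq's WBcel235 annotation, and 1 is known here only by its ID. 60 were protein-coding genes, 6 non-coding RNA genes and 4 pseudogenes. 21 lay on chromosome V, 13 on II, 12 on I, 10 on III, 8 on IV and 6 on X. Of the 60 protein-coding members 26.7% lay on V, where 18.1% of the protein-coding genes tested lie. 46.7% of the protein-coding members overlapped another gene other than a piRNA, against 38.5% of the 12957 protein-coding genes tested with a position. Whether the deposited small RNA counts used strand was not given in the sources used here, so reads of overlapping genes cannot be told apart.

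Members lay near each other in several places. 18 had another member within 10 kb, and 23 had another member or a left-out locus within that distance. The same shares were not computed over all genes tested, so these counts do not show that members cluster. Some neighbours overlap or are near copies, and their reads need not be separate. A stretch of 41.2 kb on chromosome V of WBcel235, at V:19407712-19448905, held 14 genes other than piRNAs, of which 6 were members. They form 2 groups of 3 that lie 18.5 kb apart: C25F9.5, C25F9.4 and C25F9.9, and then C25F9.14, M04C3.1 and M04C3.2. The ends of the stretch were set at its outermost members after their values were seen. C25F9.5 had 391 and 436 normalised reads in the ADAR mutant and 5.35 and 9.90 in wild type. M04C3.2, at the other end, had 200 and 215 reads against 11.6 and 11.3.

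Between the groups lay genes that are not members. C25F9.2 had 10.6 and 6.82 reads in the ADAR mutant and 15.2 and 21.2 in wild type. srw-85, of a chemoreceptor family, had 3.54 and 55.7 against 11.6 and 14.1. C25F9.15 and C25F9.11 had at most 2.27 reads in any library. C25F9.10, a left-out locus within 10 kb of C25F9.5, is not between the groups but outside the stretch, beyond the C25F9.5 end. It had 253 and 162 reads in the mutant and 2.67 and 1.41 in wild type. None of the genes between the groups had a mutant mean of 50 reads, though srw-85 in replicate 2 had more reads than the member C25F9.14 (46.6) in that library.

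**Figure D3:**
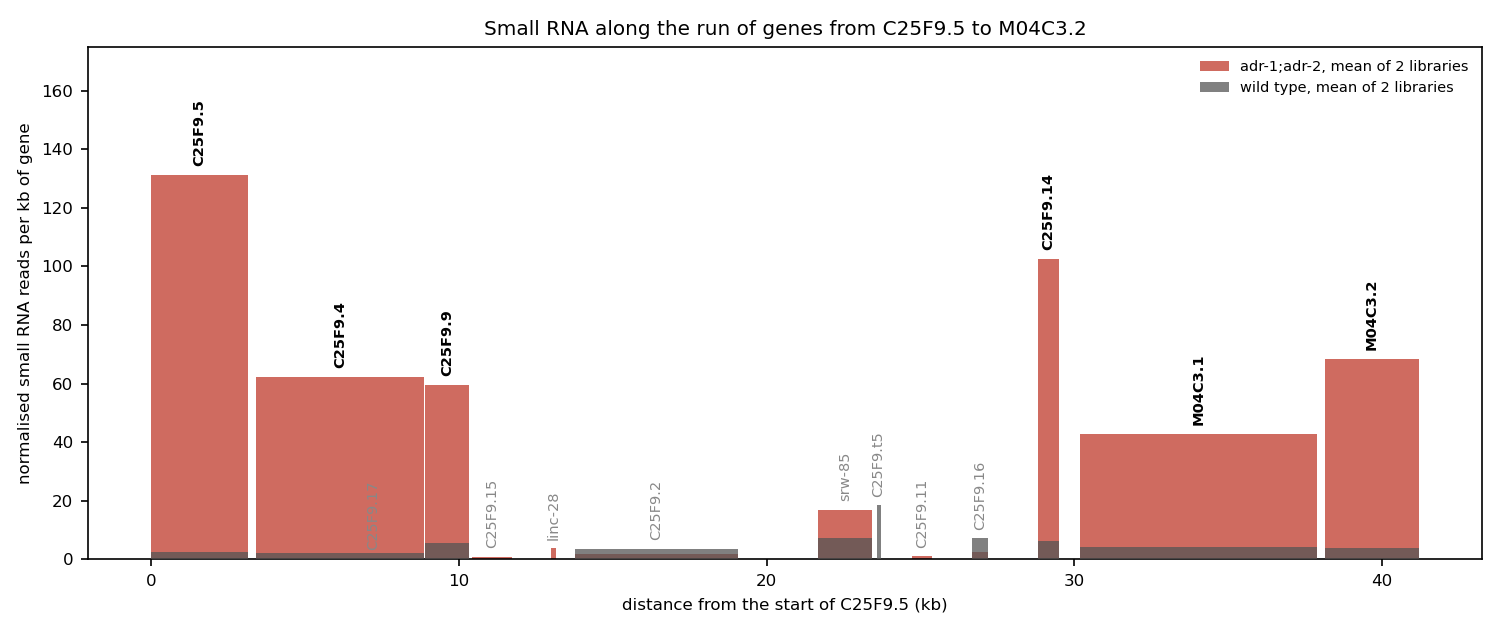
Normalised small RNA reads per kb of gene (y) along 41.2 kb of chromosome V (x, distance in kb from the start of C25F9.5), with the mean of 2 ADAR mutant libraries in red and of 2 wild-type libraries in grey. Bars span each gene and bold names are members. The members reach from 42.9 (M04C3.1) to 131 (C25F9.5) reads per kb in the mutant, and the genes between them stay below 17.0.

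Other members lay beside each other or beside a left-out locus. B0393.8 and VB0393L.2, both 493 bp long and lying close together on chromosome III, had 433 and 730 reads and 421 and 709 reads in the ADAR mutant against 46.3 and 48.1 and 48.1 and 63.6 in wild type. F45D11.7 and F45D11.11 overlap on chromosome II and had 67.2 and 206 reads and 85.6 and 232 reads in the mutant. F14H12.14, a non-coding RNA gene beside cst-1, had 53.7 and 52.3 reads in the mutant against 0.891 and 0 in wild type. 5 non-coding members lay within 1 kb of a histone gene: K06C4.19, K06C4.21, K06C4.23, K06C4.26 and T10C6.19. The share of all genes tested that lie so close to a histone gene was not computed. K06C4.23 overlaps his-20 and had 255 and 744 reads in the mutant against 16.9 and 43.8 in wild type. his-20 itself had 358 and 969 against 31.2 and 84.9.

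In eri-6 worms, which keep their ADARs, small RNA at the loci was near the wild-type level. 42 of the 71 loci had a mean of at least 10 over the eri-6 and wild-type libraries and were tested among 23380 genes with limma's moderated test on log2 of normalised reads plus 1. The test used the same wild-type libraries as the choice of the loci, which were low at these loci by choice. No member passed an adjusted p of 0.05, with 1 member and 237 of all genes at an unadjusted p under 0.05, and 0% of all genes were called higher or lower (background 0%). edgeR's quasi-likelihood test and DESeq2 on the recovered reads also called 0 members, and with DESeq2 14 of all genes were called higher and 124 lower. With 2 libraries per genotype from different wild-type strains, a missed threshold does not show that levels were equal.

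The median difference of eri-6 from wild type was 0.03 on the log2 scale over the 42 members and 0.01 over all genes tested. 37 of the 42 lay within 2-fold of wild type, 5 were more than 2-fold above and 0 more than 2-fold below. The median moved to 0.31 without eri-6 replicate 1 and to 0.26 without wild-type replicate 2, and turned to -0.19 without eri-6 replicate 2 and to -0.27 without wild-type replicate 1. Both eri-6 libraries lay above both wild-type libraries at 6 of the 42 members (14.3%, background 5.67%) and below both at 4 (9.52%, background 7.4%). The wild-type libraries were low at the members by choice, which favours the count above, so it cannot be read against its background. Among the 6, Y51F10.7 had a wild-type mean of 7.39 and an eri-6 mean of 14.4, and so reached the limit of 10 only through eri-6. The groups were at least 4-fold apart in every library at 0 members in either direction (background 0.0984% higher and 0.672% lower).

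The 5 loci more than 2-fold above wild type, named after their values were seen, were acox-1.1, W06F12.2, lim-7, F53A3.1 and R11E3.2. In the eri-6 table acox-1.1 had 49.5 and 156 normalised reads in eri-6 and a wild-type mean of 19.2 ± 10.5 (SD, n = 2). W06F12.2, which overlaps the microRNA gene mir-4814, had 157 and 111 against 27.7 ± 2.15 (SD, n = 2). lim-7 had 99.9 and 445 reads in eri-6, and its log2 difference of 1.53 was 0.46 without eri-6 replicate 2. F53A3.1 had 64.7 and 543 reads against 48.9 and 115, and its log2 difference of 1.31 turned to -0.22 without eri-6 replicate 2 and was 0.70 without wild-type replicate 1. R11E3.2 had 78.9 and 153 reads against 32.9 and 73.6, and its difference of 1.14 was 0.57 without wild-type replicate 1 and 0.67 without eri-6 replicate 2. At F53A3.1 the direction thus hung on a single library. At lim-7 and R11E3.2 the size of the difference moved with single libraries, while both eri-6 libraries lay above both wild-type libraries. The limma estimates were 2.24 ± 1.00 (SE) for acox-1.1 and 2.22 ± 0.80 (SE) for W06F12.2, both with adjusted p = 0.999985. The highest members in the ADAR mutant did not share this: F39G3.2 had 109 and 159 reads in eri-6, cst-1 had 78.1 and 132, and R12C12.7 had 85.6 and 129.

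The triple mutant lacks both ADARs and carries the eri-6 mutation. Its deposited small RNA table holds 381 rows picked by the authors, so values exist there for 33 of the 71 loci (46.5% of the members and 8.66% of the rows), and no test was run. All 33 had both triple mutant libraries above both wild-type libraries, in a table where 72.2% of the rows did. 29 of the 33 were at least 4-fold above in every library, against 24.4% of the rows. The wild-type libraries were again those that chose the loci.

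The median difference from wild type over the 33 loci was 3.56 on the log2 scale in the triple mutant and 3.48 in the ADAR mutant, each on its own table's scaling. Single loci differed more, in both directions. In the triple and the ADAR mutant the difference was 4.68 and 3.48 at alh-7, and 2.57 and 3.38 at K09H9.8. R12C12.7 had 6688 and 4331 normalised reads in the triple mutant against 129 and 244 in wild type on that table's scaling. F39G3.2 had 4621 and 4599 against 75.3 and 336. alh-7 had 2425 and 2905 against 58.5 and 179. At R12C12.7, F39G3.2 and alh-7 the triple mutant and wild-type libraries were far from overlapping.

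The other members with the largest triple mutant differences had few reads in wild type. C25F9.5 had 238 and 448 reads against 6.27 and 11.7, a log2 difference of 5.09. acox-1.1 had 846 and 569 against 14.6 and 35.1, and hpo-34 had 1801 and 1317 against 48.1 and 98.6. Y51H4A.24, tag-10, M04C3.2 and pmp-1 had log2 differences of 4.64, 4.43, 4.34 and 4.26. The smallest listed difference was 2.27, at the pseudogene C04H5.9. 18 of the 33 had a larger log2 difference in the triple mutant than in the ADAR mutant.

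In total RNA, more members were lower than higher in both mutants that lack ADARs, and most members were not called in the ADAR mutant. For each genotype the deposited table gives a single FPKM value (fragments per kilobase of transcript, scaled to depth) between 2 bounds, and a gene counts here as higher or lower where the bounds of the genotypes do not overlap. 64 of the 71 loci had a value. 8 were listed at 0 in every genotype and 16 were under 1 FPKM in all of them. The total RNA kit did not mark strand, so overlapping genes cannot be told apart there either. In bulk worms fewer cells of a type and less RNA per cell cannot be told apart.

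Of 48 members with at least 1 FPKM in the ADAR mutant or wild type, 11 were lower (22.9%, background 14.8%) and 2 higher (4.17%, background 21.1%). Their median difference was -0.50 on the log2 scale of FPKM plus 1, against 0.13 over all genes compared. In the triple mutant 20 of 45 were lower (44.4%, background 18.4%) and 3 higher (6.67%, background 21.6%), with a median of -0.92 against 0.08 over all genes. In eri-6, 3 of 43 were lower (background 7.39%) and 3 higher (background 12.6%), with a median of -0.03 against 0.12. These comparisons share the wild-type value. The triple mutant against the ADAR mutant gave 2 lower (background 4.37%) and 1 higher (background 3.01%) of 46.

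11 members were lower in both mutants without ADARs, and 2 of these also in eri-6. Among the 20 members with a mean of at least 10 FPKM, a limit added after seeing the data, 8 were lower in the ADAR mutant (background 23.2%) and 1 higher (background 26.1%), and 12 were lower in the triple mutant (background 26.9%) and 0 higher (background 26%). 17 of these 20 lay below wild type in the ADAR mutant, where 49.3% of the 5114 genes at that level did.

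Among the enzymes, acdh-1 was the most abundant member. It had 1986 FPKM in wild type (bounds 1090 to 2882), 1625 in eri-6, 953 in the ADAR mutant (630 to 1276) and 608 in the triple mutant (418 to 799). The triple mutant was thus lower than wild type, and the ADAR mutant overlapped both. acox-1.2 had 11.9 FPKM in wild type (8.75 to 15.1), 3.70 in the ADAR mutant (2.43 to 4.98) and 2.62 in the triple mutant (1.64 to 3.60), and was lower in both. acox-1.1 and alh-7 had no value in the total RNA table as used here.

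The transport and storage genes followed in part. npa-1, which encodes the lipid-binding nematode polyprotein allergen, had 43.3 FPKM in wild type, 29.2 in the ADAR mutant, 23.0 in eri-6 and 22.9 in the triple mutant, and was lower in eri-6 and in the triple mutant. pmp-1 had 49.4, 35.3, 52.2 and 22.8 FPKM in the same order and was lower in the triple mutant. hpo-34 had 204 FPKM in wild type (140 to 268), 62.9 in the ADAR mutant (46.4 to 79.5), 102 in eri-6 and 43.4 in the triple mutant (32.1 to 54.7). It was lower in all 3 mutants, and its triple mutant difference was -2.21 on the log2 scale. tag-10 was lower in all 3 as well, with 35.2 FPKM in wild type, 13.1 in the ADAR mutant, 12.6 in eri-6 and 8.53 in the triple mutant.

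Other lower members have no role known with certainty. R12C12.7 had 197 FPKM in wild type (148 to 246), 172 in eri-6, 76.7 in the ADAR mutant (57.6 to 95.8) and 63.5 in the triple mutant (47.7 to 79.3). Y51F10.7 had 559, 428, 190 and 152 FPKM in the same order. F58B4.5 had 64.4 FPKM in wild type, 46.2 in eri-6, 24.6 in the ADAR mutant and 10.7 in the triple mutant, and the triple mutant was also lower than the ADAR mutant. papl-1 (156, 121, 85.1 and 56.2 FPKM), K09H9.8 (28.4, 31.3, 11.5 and 10.9), C08B6.11 (16.2, 13.7, 6.28 and 4.87) and T28F3.8 (13.1, 9.01, 6.002 and 2.995) were lower in both mutants without ADARs, in the order wild type, eri-6, ADAR mutant and triple mutant. 3R5.2, a pseudogene, had 1.96 FPKM in wild type and was listed at 0 in both. The remaining members that were lower in the triple mutant against wild type were pyk-2, a pyruvate kinase (31.2 against 59.996 FPKM), npr-20, of a neuropeptide receptor family (0.997 against 4.27), glo-3, needed for gut granules (2.67 against 6.13), R11E3.2 (0.997 against 3.51), Y51H4A.24 (1.64 against 5.90) and T05E7.1 (2.41 against 8.60).

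A few members were higher. F39G3.2, the locus with the most small RNA reads, had 0.406 FPKM in wild type, 1.25 in eri-6, 2.48 in the ADAR mutant and 2.32 in the triple mutant, and was higher in the last 2. hpo-15 had 11.5 FPKM in wild type, 41.0 in eri-6, 28.8 in the ADAR mutant and 19.3 in the triple mutant, and was higher in eri-6 and in the ADAR mutant. M04C3.1 and M04C3.2, of the stretch on chromosome V, were higher in the triple mutant, at 5.08 and 2.29 FPKM against 2.08 and 0.776. cst-1 had 1.10, 1.52, 1.52 and 1.62 FPKM in wild type, eri-6, the ADAR mutant and the triple mutant, with overlapping bounds. ZK1240.3 and C49A9.6 were higher in eri-6, at 11.9 and 8.72 FPKM against 3.93 and 3.60. T05E7.1 was lower and PDB1.1 higher in the triple than in the ADAR mutant, at 2.41 against 5.76 and at 46.7 against 18.7 FPKM.

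**Figure D4:**
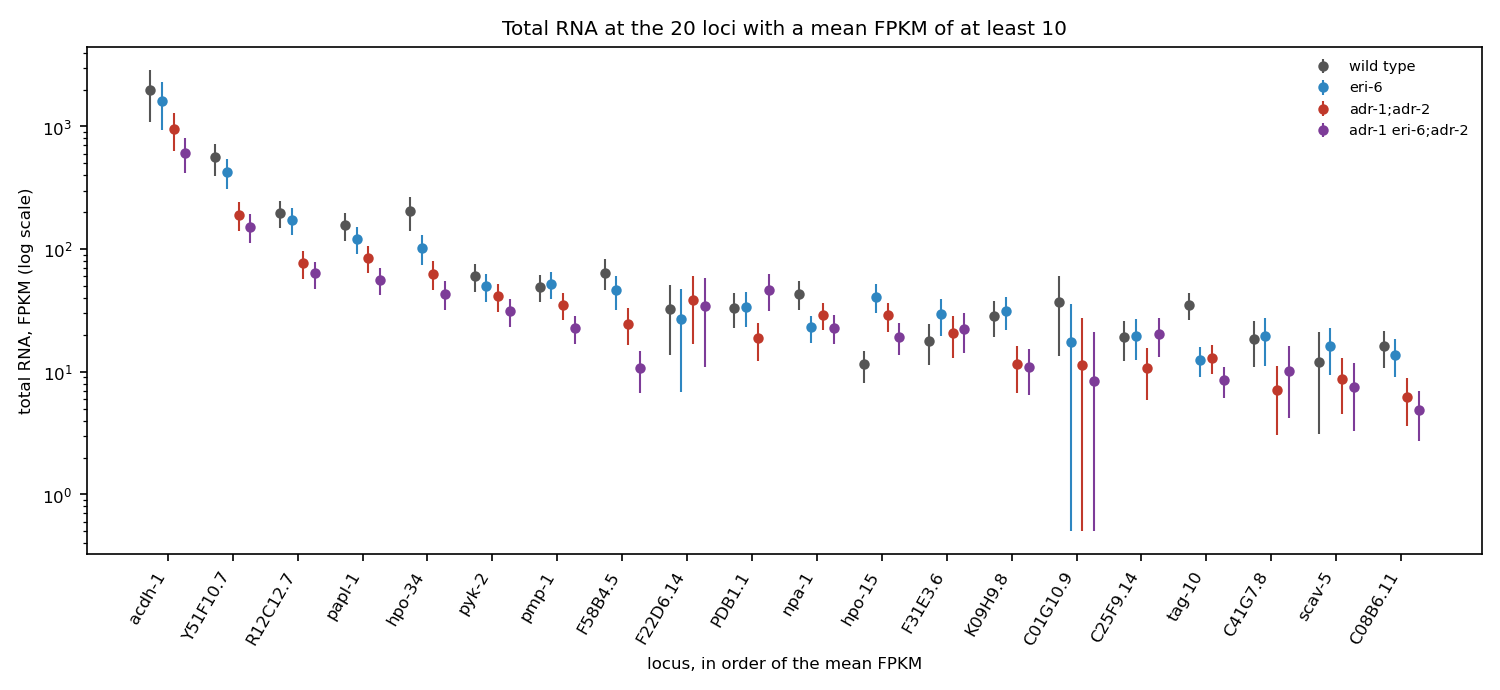
Total RNA in FPKM (log axis) of the 20 members with a mean of at least 10, with the authors' value (points) and bounds (bars) for wild type, eri-6, the ADAR mutant and the triple mutant. Lower bounds of 0 are drawn at the foot of the axis. At acdh-1, Y51F10.7, R12C12.7, papl-1 and hpo-34 the order from high to low is wild type, eri-6, ADAR mutant, triple mutant.

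Markers of other tissues also differed between the genotypes, not always in the same genotypes as the members. The 10 oocyte and early embryo genes with a value summed to 150 FPKM in wild type, 298 in eri-6, 864 in the ADAR mutant and 741 in the triple mutant, with none at 0. 9 of 10 were higher in both mutants without ADARs (background 21.1% in the ADAR mutant and 21.6% in the triple mutant). The 14 sperm genes summed to 49.8, 139, 148 and 160 FPKM in the same order, and none was at 0. The 6 yolk genes of the adult intestine summed to 1348, 581, 1044 and 533 FPKM, with 0 called in the ADAR mutant, 5 lower in eri-6 and 4 lower in the triple mutant. The 9 embryo genes summed to 11.4 to 13.2 FPKM, with 4 at 0 in wild type and 1 or 2 in the mutants. That sum hid opposite moves. elt-7 held 9.49 FPKM of it in wild type and was lower in the ADAR mutant (3.84) and the triple mutant (3.34). pes-10 was at 2.89 FPKM in wild type, 5.30 in the ADAR mutant and 4.35 in the triple mutant, with overlapping bounds. The part of these shifts in the members' values was not tested.

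The list of genes of the double-stranded RNA and siRNA pathway mostly gave higher values where members gave lower ones. Of 30 compared, 22 were higher (background 21.1%) and 0 lower (background 14.8%) in the ADAR mutant. In the triple mutant 18 were higher (background 21.6%) and 2 lower (background 18.4%). In eri-6, 7 were higher (background 12.6%) and 1 lower (background 7.39%). dcr-1, which encodes Dicer, had 3.03 FPKM in wild type, 13.1 in the ADAR mutant and 15.2 in the triple mutant. rrf-3, an RNA-dependent RNA polymerase, had 2.23, 17.6 and 17.5 FPKM. nrde-3 had 1.67, 3.90 and 4.92 FPKM. Many of these genes act in the germ line, whose marker sums moved in the same direction. The part of that shift in these genes' values was not tested.

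In mRNA, each condition was 1 library, so differences there have no replicate check and no test was run. Of 46 members with at least 1 FPKM in either library, 1 was at least 4-fold lower in the triple mutant than in wild type on control food (background 1.73%) and 0 at least 4-fold higher (background 3.26%). At 2-fold, 12 were lower (26.1%, background 16%) and 0 higher (background 11.8%). The median difference was -0.33 on the log2 scale of FPKM plus 1, against -0.09 over all genes. Among members with a mean of at least 10 FPKM, a limit added after seeing the data, 9 of 19 were at least 2-fold lower (background 21.9%) and 0 higher (background 6.11%).

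acdh-1 was the member past 4-fold, with 1359 FPKM in wild type and 276 in the triple mutant, and its total RNA was lower in the triple mutant too. T05E7.1 had 12.7 and 2.69 FPKM, papl-1 108 and 35.1, F58B4.5 43.5 and 14.1, R12C12.7 98.8 and 33.4, and K09H9.8 28.7 and 9.90. hpo-34, with the largest difference among the abundant members in ADAR mutant total RNA, was close between the mRNA libraries at 116 and 103 FPKM. tag-10 was at 15.7 FPKM in wild type and 23.1 in the triple mutant, the other direction from total RNA. hpo-15 was at 66.1 and 24.4 FPKM, also the other direction, though its total RNA bounds in the triple mutant overlapped those of wild type.

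On nrde-3 RNAi, many abundant members had more mRNA in the triple mutant than on control food. Of 46 members, 8 were at least 2-fold higher (17.4%, background 12.1%) and 2 at least 2-fold lower (4.35%, background 7.41%). 35 of the 46 lay above control (76.1%), where 55.3% of all genes compared did. Among the 21 members with a mean of at least 10 FPKM the same 8 were higher (38.1%, background 15.8%) and the same 2 lower (background 3.48%), and the median difference was 0.93 against 0.20 over all genes at that level. In wild type 1 member was at least 2-fold higher on nrde-3 RNAi (background 3.28%) and 0 lower (background 2.38%). At a mean of at least 10 FPKM it was 0 in both directions (background 1.4% higher and 1.27% lower). Over all levels 30 of 46 members lay above control in wild type (65.2%, against 42.4% of all genes). nrde-3 mRNA itself was at 5.26 FPKM on nrde-3 RNAi against 5.76 on control in wild type. In the triple mutant it was at 8.08 against 15.4, so the food was not followed by a like fall of nrde-3 in the 2 genotypes. The difference between the genotypes in the members was not tested.

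acdh-1 had 299 FPKM in the triple mutant on control food and 799 on nrde-3 RNAi, while wild type had 1474 and 1548. R12C12.7 had 36.3 and 92.6 FPKM in the triple mutant and 107 and 106 in wild type. K09H9.8 had 10.8 and 27.0 in the triple mutant and 31.2 and 22.6 in wild type. The difference of the triple mutant from wild type on control food and its difference on nrde-3 RNAi both use the same single triple mutant control library, with opposite sign.

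The other 5 of the 8 were papl-1 (38.1 and 77.4 FPKM in the triple mutant on control and nrde-3 RNAi), hpo-34 (112 and 237), the pseudogene F22D6.14 (95.9 and 195), C41G7.8 (14.9 and 52.0) and C25F9.14 (22.7 and 71.6). hpo-34, C41G7.8 and C25F9.14 ended above the wild-type control values of 126, 20.6 and 20.51 FPKM. npa-1 and tag-10 were lower on nrde-3 RNAi, at 21.3 against 54.7 FPKM and at 6.35 against 25.1. F31D4.5 was the member that was higher in wild type, at 4.33 against 1.09 FPKM.

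**Figure D5:**
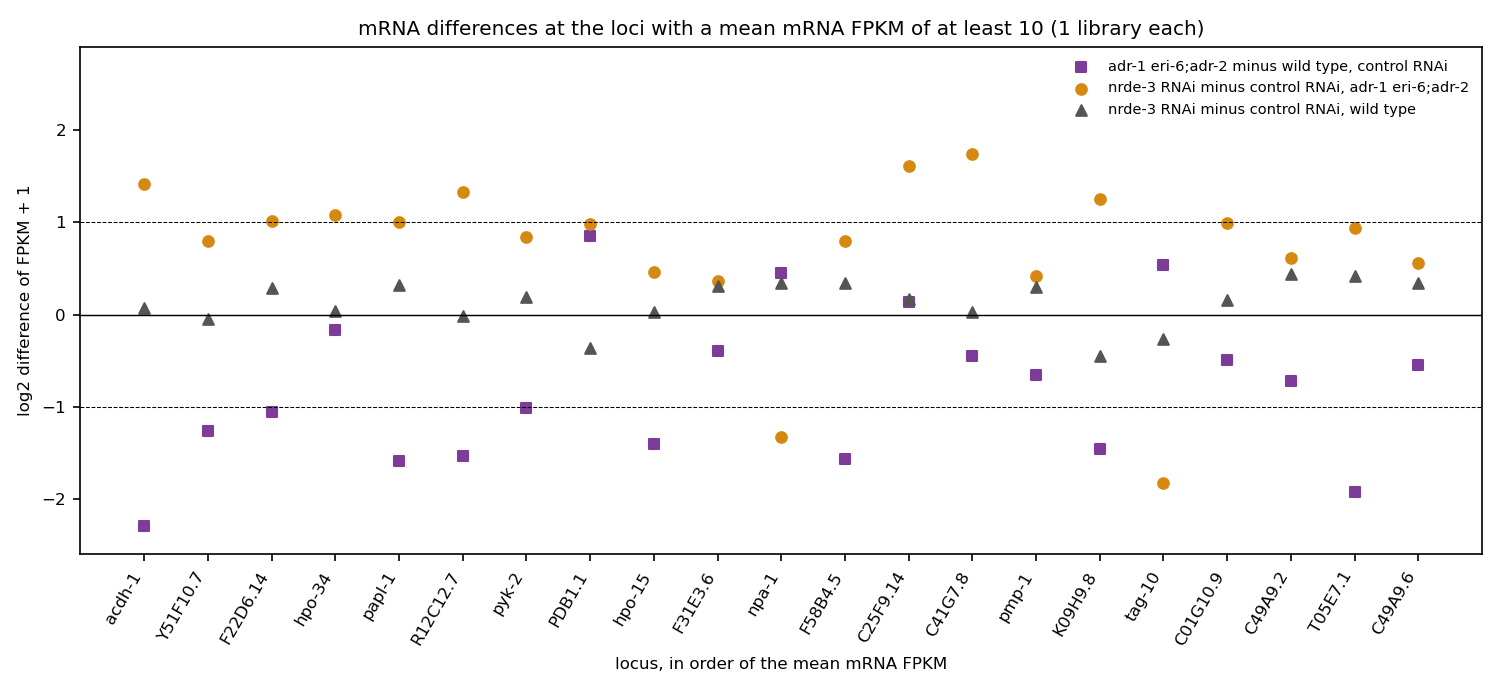
log2 difference of mRNA FPKM plus 1 (y) at the members with a mean mRNA of at least 10 FPKM, for the triple mutant against wild type on control food (squares) and for nrde-3 RNAi against control food in the triple mutant (circles) and in wild type (triangles), 1 library each. Dashed lines mark 2-fold. Squares and circles share the triple mutant control library with opposite sign. acdh-1 has the lowest square at -2.30, and its circle is at 1.41.

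The marker sums of the triple mutant libraries moved between these foods as well. On nrde-3 RNAi the yolk genes summed to 9332 FPKM against 4738 on control, the 12 oocyte and early embryo genes to 2410 against 4843, and the sperm genes to 60.8 against 141. In wild type they summed to 9317 against 7917, to 2171 against 2792 and to 8.23 against 13.3. The part of these shifts in the members' mRNA was not tested.

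The libraries labelled drh-1 RNAi gave a mixed picture. In the triple mutant 3 of 45 members were at least 2-fold higher (6.67%, background 6.9%) and 8 at least 2-fold lower (17.8%, background 11.8%) than on control food. acdh-1 (276 to 600 FPKM), hpo-34 (103 to 249) and K09H9.8 (9.90 to 25.5) were the higher ones and were also among those higher on nrde-3 RNAi. npa-1 (50.4 to 7.99 FPKM) and M04C3.1 (6.60 to 0.739) were the lowest of the 8. Both foods are set against 1 control library, so they share it.

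In wild type 9 of 45 members were at least 2-fold lower on drh-1 RNAi (20%, background 10.1%) and 0 higher (background 3.83%). R12C12.7 was at 24.01 against 98.8 FPKM and F58B4.5 at 15.2 against 43.5. The yolk sum of these libraries was 22288 FPKM against 7315 on control in wild type, and 13039 against 4348 in the triple mutant. The oocyte and early embryo sum was 2798 against 2575 and 3474 against 4449.

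The genotypes were also set against each other on the same RNAi food. In the libraries labelled drh-1 RNAi, 1 of 41 members was at least 4-fold higher in the triple mutant (C25F9.14, 38.9 against 8.63 FPKM, background 2.84%) and 0 lower (background 1.61%). At 2-fold 4 were higher (background 8.18%) and 5 lower (background 6.63%). On nrde-3 RNAi 1 of 47 was at least 4-fold higher (PDB1.1, 108 against 23.1 FPKM, background 2.69%) and 0 lower (background 1.57%), and at 2-fold 3 were higher (background 7.96%) and 5 lower (background 5.37%).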

How the data were processed

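Small RNA, total RNA and mRNA tables of whole worms were used as deposited. Per the submitters' processing notes the build was WBcel235 and the tools were Cuffdiff, Cufflinks, TopHat2, DESeq2, featureCounts, BWA and Trim Galore, with no versions or order given. The deposited small RNA values are a normalised read signal: divided by 1 factor per library, 100% of values came out whole within 0.01 read, and in the eri-6 table these factors equal DESeq2 size factors. The authors' FPKM values for total RNA come as 1 value per genotype with bounds, and the deposited FPKM for mRNA as 1 per library.

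Members were found by the rule in the opening. The members, lists and tests were chosen with earlier results of these data known. A locus was dropped if its deposited or its reference name matched. Genes with a mean of at least 10 were tested for eri-6 against wild type with limma 3.58.1 (R 4.3.3, trend, log2 of reads plus 1, Benjamini-Hochberg), and alternatively with edgeR 4.0.16 and DESeq2 1.42.0 on the recovered reads. The limma step was tested on simulated data. Since the labels do not name separate cultures, p-values measure the spread between these libraries. FPKM folds used a pseudocount of 1, which understates the change of low genes, and genes with at least 1 FPKM in either group, and 321 of 36234 total RNA entries and 344 of 37425 mRNA entries with duplicated IDs were left out. The mRNA control libraries are scaled 1.08 to 1.09 times higher in the nrde-3 than in the drh-1 table, and each comparison stays within 1 table.

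Members are named if they are among the 12 highest ADAR mutant means, the 10 largest gaps, the 3 just inside a limit, the 10 largest called in a comparison, or neighbours of another member. No sequences were used because no genome was given.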

Additional observations from a re-analysis of the deposited data

Results flagged for a closer look

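At 3 members the difference between an RNAi food and control food had opposite directions in the triple mutant and in wild type and differed by at least 4-fold between them. With 1 library per condition these differences were not tested. At tag-10 the log2 difference of the libraries labelled drh-1 RNAi from control was -2.4 in the triple mutant minus wild type (6.83 against 23.1 FPKM in the triple mutant, 27.7 against 15.7 in wild type). At C41G7.8 that value was 2.2 (24.3 against 13.7 FPKM, and 6.48 against 19.02 in wild type). At F31D4.5 the value for nrde-3 RNAi was -2.26 (0.656 against 2.11 FPKM, and 4.33 against 1.09 in wild type).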

How the results depend on the processing

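The number of loci that met the rule was 108 with a mutant mean of at least 10, and ran from 155 to 382 when 1 library was left out, the highest without ADAR mutant replicate 1. The median eri-6 difference ran from -0.27 to 0.31 when 1 library was left out. The eri-6 difference of F53A3.1 ran from -0.22 without eri-6 replicate 2 to 2.83 without eri-6 replicate 1. Fitting replicate number as a block (the replicate block) gave 0 members called in eri-6 in either direction, with 8 genes of all higher and 98 lower, against 0 and 0 without it; the replicates share only a number, and nothing states a pairing. With eri-6 replicate 1, eri-6 replicate 2, WT replicate 1 or WT replicate 2 left out, 0 members were called. In total RNA, a fold of at least 2 gave 1 lower in eri-6, 1 higher in the triple mutant, and 1 lower in the triple against the ADAR mutant. A mean of at least 10 FPKM (added after seeing the data) gave 1 higher in the ADAR mutant, 1 higher in eri-6, 0 higher and 12 lower in the triple mutant and 1 lower in the triple against the ADAR mutant. Without members that overlap another gene (also added) the counts were 1 higher and 7 lower in the ADAR mutant, 1 lower in eri-6, 11 lower in the triple mutant and 1 lower in the triple against the ADAR mutant. In mRNA of the triple mutant against wild type, a fold of 2 gave 12 lower on control, 4 higher and 5 lower on drh-1 RNAi, and 3 higher and 5 lower on nrde-3 RNAi. A pseudocount of 0.1 gave 2 lower on control, 2 higher and 1 lower on drh-1 RNAi and 1 lower on nrde-3 RNAi, and a pseudocount of 5 gave 0 higher on drh-1 RNAi. For RNAi against control in the triple mutant, a fold of 4 gave 0 higher and 2 lower on drh-1 RNAi and 0 in both directions on nrde-3 RNAi. A pseudocount of 0.1 gave 5 higher and one of 5 gave 3 lower on drh-1 RNAi, and the mean limit gave 2 lower. In wild type a fold of 4 gave 0 lower on drh-1 RNAi and 0 higher on nrde-3 RNAi, a pseudocount of 5 gave 3 lower and 0 higher, the mean limit 5 lower and 0 higher, and a pseudocount of 0.1 gave 4 higher on nrde-3 RNAi. At irld-35, npa-1, F45D11.7, C04H5.9 and acox-1.2 the gap was under 2 with a pseudocount of 5. The other alternatives stayed within 1.5 times of the counts given, and the causes were not tested. Depth limits the wild-type side: median wild-type levels of 12.5 and 19.8 normalised reads rest on few reads, and total RNA and mRNA have no counts or depth.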
